A study of Homo sapiens with 4 samples.

Results

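The high mobility group (HMG) genes compared here were HMGB1, HMGB2, HMGB3, HMGA1, HMGA2, HMGN1, HMGN2 and HMGN3. They were looked up by gene symbol, and all 8 were found among the 18134 genes of the deposited expression table. PC9, an established human lung adenocarcinoma cell line, was infected with lentivirus carrying a short hairpin against TPX2 (shTPX2) or a negative control hairpin (shNC), and stable lines were obtained by antibiotic selection. TPX2 is a spindle assembly factor, and the comparison asked how its knockdown changes the transcriptome of these cells. Poly(A)-selected RNA of 2 shNC libraries and 2 shTPX2 libraries was sequenced, and the labels give 1 batch for all 4 libraries. All of them were grown in DMEM with fetal bovine serum, and all carried a hairpin and had passed through selection, so uninfected cells were not part of the comparison. Nothing in the labels says that libraries of a group came from separate cultures or clones, and p-values therefore measure the spread between these libraries, which may be technical.

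HMG proteins are abundant non-histone proteins of chromatin, and the 3 families bind it in different ways. HMGB proteins carry paired HMG boxes that bend DNA without sequence preference, and HMGB1 also serves as an alarm signal outside the cell and as a binding partner of Beclin 1 in autophagy. HMGA proteins bind the minor groove of AT-rich DNA through AT-hook motifs and are typical of embryonic and tumour cells. HMGN proteins bind the nucleosome core itself and compete with linker histone H1 for chromatin.

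The deposited values were an expected count, the estimated number of reads per gene, and TPM, which is scaled for transcript length and library so that genes can be compared with each other. Expected counts summed to between 20906441 and 21972583 per library, and the members had between 389 and 70232 counts in a library. All 8 passed the filter on low counts, which kept 14048 genes. Epithelial markers were abundant, with KRT8 between 8228 and 11388 TPM and EPCAM between 201 and 293 TPM, whereas the lung lineage markers NKX2-1, NAPSA and SFTPB did not exceed 1.67 TPM. Markers of leukocytes, endothelium and fibroblasts summed to 35.6 TPM in shNC 1, 72.8 TPM in shNC 2, 44.5 TPM in shTPX2 1 and 59.4 TPM in shTPX2 2, with PTPRC, CD3E, COL1A2 and DCN all at or below 0.69 TPM. Of the 5 tested genes of this list 4 had a negative log2 fold change and the median was −0.46, with CD14 at −0.48, COL1A1 at −0.46 and PECAM1 at −0.79. The exception was the endothelial CDH5, with 14.4 and 18.1 TPM in the shNC libraries and 26.7 and 30.5 TPM in the shTPX2 libraries (adjusted p = 0.439 in edgeR). The part of these markers in the results was not tested. TPX2 itself was at 55.0 TPM in shNC 1, 112 TPM in shNC 2, 43.4 TPM in shTPX2 1 and 43.8 TPM in shTPX2 2. These groups did not overlap, but shNC 1 lay closer to both shTPX2 libraries than to shNC 2. In bulk RNA, fewer cells that express a gene and less RNA per cell cannot be told apart. The log2 fold change of TPX2 was −0.81 (SE 0.32, 95% interval −1.57 to −0.05), with an adjusted p of 0.618 in the quasi-likelihood test of edgeR. Without shNC 2 the difference was only −0.24, and without shNC 1 it was −1.21.

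Several HMG genes have many processed copies in the genome, which bears on how far their reads can be assigned. GENCODE v29, the GRCh38 annotation used for this check, names 48 pseudogenes of HMGB1, 36 of HMGN2, 31 of HMGN1, 29 of HMGB3, 7 of HMGA1, 1 of HMGB2, 1 of HMGN3 and 0 of HMGA2. Of these pseudogenes, 0 were found among the rows analysed here. To see how much of each mRNA is shared, every stretch of 100 bases of the main transcript was searched for exactly in the transcripts of all other genes. Of these stretches, 11.8% of HMGN2 (transcript length 1191 bases) and 7.63% of HMGB1 (5485 bases) also occurred in another gene, compared to 1.87% for HMGN1, 0.116% for HMGB3 and 0 for the other 4 members. At 150 bases, the read length of the study, 7.58% of HMGN2 and 3.75% of HMGB1 were still shared, and 0 of the other 6. These percentages depend on the transcript taken. The average transcript length implied by the deposited values was 2388 to 2431 bases for HMGB1 and 1967 to 1969 bases for HMGN2, and over these lengths the order of HMGB1 and HMGN2 could differ. The search covered annotated transcripts only, so copies that are not annotated were missed. The study read 150 bases from both ends of each fragment, whereas the search took single stretches. The share of read pairs that match another gene was therefore not measured.

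HMGN2 showed how close such a copy can be, and its coding sequence is set here beside its functional relative HMGN4 and beside a pseudogene. HMGN2 lies on the plus strand at chr1:26472450-26475972, HMGN4 on the plus strand at chr6:26538405-26546254 and the pseudogene HMGN2P5 on the plus strand at chr15:29730713-29730985 (GRCh38). The 270 coding bases are written from the start codon with the stop codon left off, and capitals mark each base that differs from HMGN2.
HMGN2: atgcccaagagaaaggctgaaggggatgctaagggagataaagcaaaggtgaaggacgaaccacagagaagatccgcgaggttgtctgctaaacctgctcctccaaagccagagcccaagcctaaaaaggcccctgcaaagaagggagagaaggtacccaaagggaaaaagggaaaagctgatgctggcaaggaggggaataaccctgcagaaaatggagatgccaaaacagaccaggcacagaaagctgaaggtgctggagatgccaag
HMGN4: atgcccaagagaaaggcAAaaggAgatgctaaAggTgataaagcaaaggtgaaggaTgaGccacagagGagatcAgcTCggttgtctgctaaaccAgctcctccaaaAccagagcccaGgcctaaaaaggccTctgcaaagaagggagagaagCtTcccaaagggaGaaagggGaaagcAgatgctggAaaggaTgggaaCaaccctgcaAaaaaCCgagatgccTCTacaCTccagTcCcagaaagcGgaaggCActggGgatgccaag
HMGN2P5: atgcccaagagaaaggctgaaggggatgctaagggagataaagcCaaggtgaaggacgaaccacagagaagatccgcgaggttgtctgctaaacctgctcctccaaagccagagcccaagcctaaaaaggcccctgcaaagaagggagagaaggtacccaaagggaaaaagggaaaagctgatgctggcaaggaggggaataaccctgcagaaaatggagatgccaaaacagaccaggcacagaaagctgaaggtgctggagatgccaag
HMGN4 differed from HMGN2 at 37 bases (86.3% identical), and the longest run without a difference was 20 bases. The pseudogene differed at 1 base (99.6% identical), with an identical run of 225 bases that is longer than 1 read of a pair. Besides HMGN2P5, which shared 129 of the 100-base stretches, HMGN2P3 shared 53, HMGN2P6 shared 37 and HMGN2P15 shared 9.

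The beginning of the HMGB1 coding sequence, which encodes the first HMG box, is likewise shown beside the pseudogene with which HMGB1 shared the most. HMGB1 lies on the minus strand at chr13:30456704-30617597, and HMGB1P5 on the plus strand at chr3:22381819-22382929. Both are written in the sense of HMGB1, over the first 240 coding bases, and the capital marks the base that differs.
HMGB1: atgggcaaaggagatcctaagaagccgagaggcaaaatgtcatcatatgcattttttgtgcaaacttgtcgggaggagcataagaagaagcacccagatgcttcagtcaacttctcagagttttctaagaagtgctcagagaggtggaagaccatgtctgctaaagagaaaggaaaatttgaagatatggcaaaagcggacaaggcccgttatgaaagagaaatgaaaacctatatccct
HMGB1P5: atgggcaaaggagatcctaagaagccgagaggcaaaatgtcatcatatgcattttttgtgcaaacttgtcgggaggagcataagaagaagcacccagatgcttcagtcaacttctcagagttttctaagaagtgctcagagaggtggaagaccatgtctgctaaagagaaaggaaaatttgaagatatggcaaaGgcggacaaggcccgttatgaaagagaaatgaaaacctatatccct
Over this stretch the pseudogene differed at 1 base (99.6% identical) and had an identical run of 194 bases. HMGB1P5 held 324 of the 100-base stretches of the HMGB1 transcript, and HMGB1P6 held 215. Among the functional genes themselves the coding sequences were much less alike, with 74.9% identity between HMGB1 and HMGB2, 68.8% between HMGB1 and HMGB3, 63.7% between HMGN2 and HMGN3, 54.9% between HMGN1 and HMGN2 and 52.6% between HMGA1 and HMGA2.

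The deposited counts of the members were not all whole numbers. For HMGB1, HMGA1, HMGA2 and HMGN2 the expected count was a fraction in all 4 libraries, and for HMGB2, HMGB3, HMGN1 and HMGN3 it was a whole number in all 4 (within 1e-06). At 150 bases HMGB1 and HMGN2, the members with shared stretches, both had fractional counts, and of the 6 members with 0 shared stretches HMGA1 and HMGA2 had them too. How the quantification treated reads that also match a copy was not tested. The values of HMGB1 and HMGN2 are uncertain for this reason. Those of HMGN1 and HMGB3, with shared stretches at 100 bases but 0 at 150 bases, may be so to a lesser degree.

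Most HMG genes had a somewhat higher mean level in the TPX2 knockdown group, but none of the differences passed the test. HMGB1, HMGB2, HMGB3, HMGA1, HMGN1 and HMGN2 had log2 fold changes between 0.18 and 0.40, HMGN3 had −0.36, and HMGA2 had 0.02 with TMM factors, which turned to −0.060 when scaled by library size only and to −0.15 in limma voom. In edgeR 7 values were therefore positive and 1 was negative. The median over the 8 members was 0.27, compared to −0.0085 over all tested genes. This median rested on shTPX2 1, since it was 0.023 without that library and 0.48 without shTPX2 2. Adjusted p-values of the members lay between 0.687 and 0.995 in edgeR, and 0 of 8 passed 0.05, as did 0% of all tested genes. At an unadjusted p under 0.05, edgeR called 0 of the 8 members, compared to 8.03% of all tested genes, and DESeq2 also called 0, compared to 7.5%. The study's methods set looser criteria in limma voom, namely an unadjusted p of up to 0.1 together with a log fold change of 0.3 or more, whose base is not given and was taken here as log2. By these criteria HMGB1 alone was called, as higher, that is 1 of 8 members or 12.5%, beside 14.2% of all tested genes (6.24% higher and 7.99% lower). With all 4 libraries the share of members called was thus close to or below that of the transcriptome by each of these rules. Without shTPX2 2 the voom criteria called 4 of 8 members, beside 7.03% of all tested genes. Wherever a library is left out, its group holds 1 library, which is assumed to vary like the libraries of the other group, and the p-values rest on that spread.

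The spread within the groups was large relative to these differences. For 6 of the 8 members, 2 libraries of the same group were farther apart in TPM than the means of the groups. This was not counted over all tested genes, so it is not read as a trait of the HMG genes. In TPM the groups did not overlap for HMGN1, which was higher in both shTPX2 libraries, and for HMGN3, which was lower in both, that is 2 of the 8 members, beside 41% of all tested genes (10.7% higher and 30.3% lower). The TMM factors of edgeR, which correct for differences in composition between libraries, were 0.998 for shNC 1, 1.05 for shNC 2, 0.959 for shTPX2 1 and 0.994 for shTPX2 2, and fold changes from edgeR were more positive than those without them. The median of the members was 0.20 with library size only and 0.14 with limma on log2(TPM + 1), compared to 0.27 with TMM factors. The median of all tested genes moved the same way, to −0.078 and −0.099, compared to −0.0085 with TMM factors. In library-scaled counts (CPM) corrected by these factors, HMGB1, HMGB3 and HMGN1 were higher without overlap and HMGN3 was lower, which is 50% of the members beside 39.6% of all tested genes (19.4% higher and 20.2% lower). With 2 libraries against 2, an exact permutation test of a single gene cannot give a p below 0.333, so no such test was made.

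**Figure D1:**
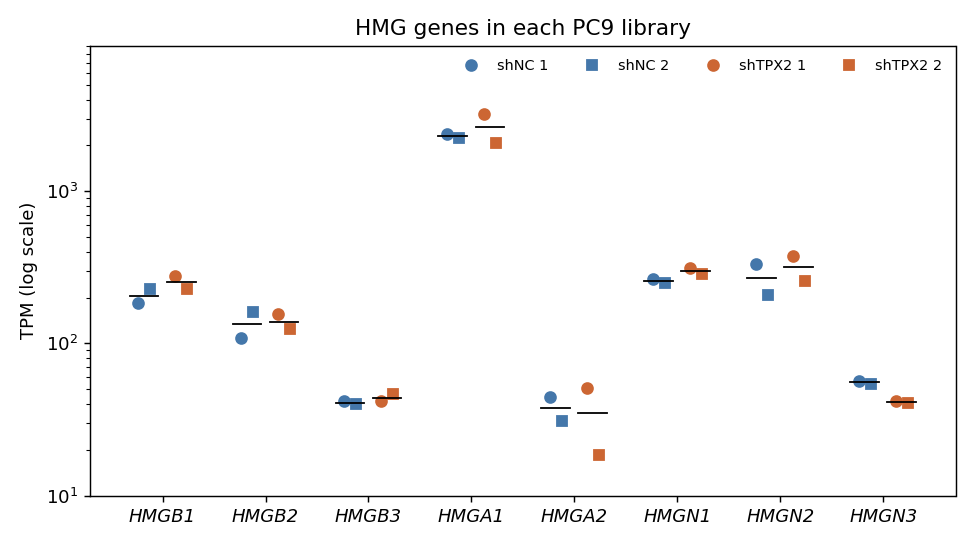
TPM (log scale) of each HMG gene in the 4 PC9 libraries, with shNC in blue, shTPX2 in orange, circles for replicate 1, squares for replicate 2 and a bar at the mean of each group. HMGA1 lies far above the other members, HMGA2 is spread from 18.5 to 51.2 TPM within the shTPX2 group, and only HMGN1 and HMGN3 have groups that do not overlap.

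HMGB1 (NCBI gene 3146), which bends DNA in the nucleus and takes part in autophagy in the cytoplasm, measured 183 TPM in shNC 1, 229 TPM in shNC 2, 277 TPM in shTPX2 1 and 227 TPM in shTPX2 2. Only shTPX2 1 stood above both shNC libraries, and shTPX2 2 and shNC 2 were nearly equal. The means were 206 ± 33.1 TPM in the shNC group and 252 ± 35.6 TPM in the TPX2 knockdown group (SD, n = 2 each), a difference of 22.2%. The log2 fold change was 0.40 (SE 0.21, 95% interval −0.10 to 0.90), with an unadjusted p of 0.0985 and an adjusted p of 0.687 in edgeR. In limma voom the unadjusted p was 0.0932, just inside the limit of 0.1, and the call was lost without shNC 1 and without shTPX2 1, where the edgeR difference was 0.27 and 0.23. With all 4 libraries it was also lost when scaled by library size only, where the edgeR difference was 0.32, and with limma on log2(TPM + 1), where it was 0.29. Part of its transcript is identical to pseudogenes, as the sequences of HMGB1 and HMGB1P5 show, and its values carry that uncertainty.

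HMGB2 (NCBI gene 3148), the family member most closely tied to proliferating cells, had a different profile. Its level was 108 TPM in shNC 1, 161 TPM in shNC 2, 155 TPM in shTPX2 1 and 124 TPM in shTPX2 2. Both the lowest and the highest value belonged to the shNC group, and the shTPX2 libraries lay between them in TPM. By expected count shTPX2 1 was the highest, with 2565 compared to 2509 in shNC 2. The means were 134 ± 37.9 TPM and 139 ± 22.5 TPM (SD, n = 2 each), a ratio of 1.04. From counts with TMM factors the log2 fold change was 0.18 (SE 0.24, 95% interval −0.40 to 0.76, adjusted p = 0.877 in edgeR). This difference turned to −0.057 without shNC 1 and to −0.0072 without shTPX2 1.

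HMGB3 (NCBI gene 3149), known from stem and progenitor cells of the blood, was the least abundant HMGB gene. It measured 41.7 TPM in shNC 1, 40.1 TPM in shNC 2, 41.7 TPM in shTPX2 1 and 46.5 TPM in shTPX2 2. Here shTPX2 2 was the highest library, and the other 3 lay close together. The means were 40.9 ± 1.14 TPM and 44.1 ± 3.38 TPM (SD, n = 2 each). For HMGB3 the log2 fold change was 0.23 (SE 0.16, 95% interval −0.15 to 0.62, adjusted p = 0.755 in edgeR), which is the smallest standard error among the members. HMGB1 exceeded HMGB2 in TPM in every library, by a ratio of 1.70 and 1.42 in the shNC libraries and of 1.78 and 1.83 in the shTPX2 libraries.

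HMGA1 (NCBI gene 3159), an AT-hook protein that organises enhancers and is abundant in many carcinomas, dominated the group. It ranked at place 45 of the 18134 genes by mean TPM, and the HMGA genes together made up between 68.0% and 73.1% of the summed TPM of the 8 members in each library. Its level was 2365 TPM in shNC 1, 2235 TPM in shNC 2, 3235 TPM in shTPX2 1 and 2061 TPM in shTPX2 2. Here the shTPX2 libraries stood on either side of the shNC libraries, so that one was the highest of the 4 and the other the lowest. The means were 2300 ± 92.3 TPM and 2648 ± 830 TPM (SD, n = 2 each), and the log2 fold change was 0.33 (SE 0.27, 95% interval −0.33 to 0.99, adjusted p = 0.791 in edgeR). Without shTPX2 1 it was −0.051, and without shTPX2 2 it was 0.64.

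HMGA2 (NCBI gene 8091), an embryonic AT-hook protein that is repressed by let-7 microRNAs and is expressed again in many tumours, varied most. It measured 44.7 TPM in shNC 1, 30.8 TPM in shNC 2, 51.2 TPM in shTPX2 1 and 18.5 TPM in shTPX2 2. As for HMGA1, the highest and the lowest library were both from the TPX2 knockdown group, and they differed 2.77-fold. The mean was 37.8 ± 9.84 TPM in the shNC group and 34.8 ± 23.1 TPM in the knockdown group (SD, n = 2 each). The log2 fold change was 0.02 (SE 0.48), and its 95% interval from −1.13 to 1.16 (0.456-fold to 2.24-fold) covers a considerable change in either direction (adjusted p = 0.995 in edgeR). It was −0.94 without shTPX2 1 and −0.26 without shNC 2, but 0.34 without shNC 1 and 0.59 without shTPX2 2. With all 4 libraries it was −0.15 in limma voom, so the sign depends on the libraries and on the method. The ratio of HMGA1 to HMGA2 in TPM was 52.9 and 72.6 in the shNC libraries and 63.2 and 111 in the shTPX2 libraries.

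HMGN1 (NCBI gene 3150), a nucleosome-binding protein that loosens chromatin compaction, measured 266 TPM in shNC 1, 249 TPM in shNC 2, 314 TPM in shTPX2 1 and 284 TPM in shTPX2 2. Both shTPX2 libraries were above both shNC libraries. The means were 258 ± 12 TPM and 299 ± 21.2 TPM (SD, n = 2 each), a difference of 15.8%. The log2 fold change of 0.30 (SE 0.17, 95% interval −0.10 to 0.71) had an unadjusted p of 0.121 and an adjusted p of 0.702 in edgeR, and it stayed between 0.22 and 0.39 when any library was left out.

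HMGN2 (NCBI gene 3151), the closest relative of HMGN1 in function, measured 331 TPM in shNC 1, 207 TPM in shNC 2, 378 TPM in shTPX2 1 and 259 TPM in shTPX2 2. Libraries numbered 1 were higher than those numbered 2 in both groups, and the groups overlapped. The means were 269 ± 87.1 TPM and 319 ± 83.9 TPM (SD, n = 2 each). HMGN2 had a log2 fold change of 0.37 (SE 0.31, 95% interval −0.37 to 1.10, adjusted p = 0.791 in edgeR). With the replicate number as a block, which no label ties to a shared culture, its unadjusted p was 0.0397 in edgeR (adjusted p = 0.508). The log2 fold change was 0.78 without shNC 1 and 0.64 without shTPX2 2, but only 0.048 without shNC 2 and 0.053 without shTPX2 1. These values carry the uncertainty of the copies whose sequence was given above.

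HMGN3 (NCBI gene 9324), whose transcripts code for a long and a short form and which is known from pancreatic islets and the brain, was the only member whose level was lower in both knockdown libraries than in both controls. Its level was 56.7 TPM in shNC 1, 54.1 TPM in shNC 2, 42.0 TPM in shTPX2 1 and 40.4 TPM in shTPX2 2. Both groups were clearly apart, and libraries of the same group were almost equal. The means were 55.4 ± 1.80 TPM and 41.2 ± 1.11 TPM (SD, n = 2 each), so the knockdown group was lower by 25.7%. The distance within a group was at most 0.179 of the difference between the means, the smallest such value among the members. The expected counts showed the same order of the groups, with 528 and 554 in the shNC libraries and 414 and 389 in the shTPX2 libraries. The log2 fold change was −0.36 (SE 0.19, 95% interval −0.81 to 0.09), with an unadjusted p of 0.101 and an adjusted p of 0.689 in edgeR, whose estimate of spread is drawn toward that of all genes. Leaving out any library gave values between −0.39 and −0.32. With limma on log2(TPM + 1) the unadjusted p of HMGN3 was 0.0300, and this was the only one of the 12 alternatives in which HMGN3 passed 0.05. The ratio of HMGN1 to HMGN3 in TPM, a pair chosen after the values had been seen and therefore given without a test, was 4.70 and 4.61 in the shNC libraries and 7.48 and 7.02 in the shTPX2 libraries.

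**Figure D2:**
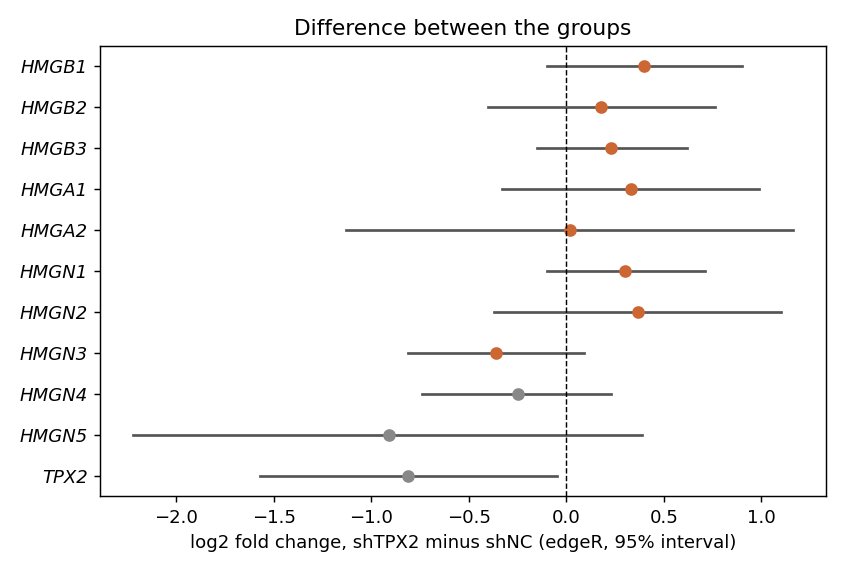
Log2 fold change (shTPX2 minus shNC, edgeR) of the 8 HMG genes in orange and of HMGN4, HMGN5 and TPX2 in grey, with lines for the 95% interval. The interval of every HMG gene includes 0, that of HMGA2 is the widest among the members (−1.13 to 1.16), and HMGN3 lies on the negative side at −0.36.

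Transcript usage bears on TPM because longer transcripts yield more reads. The average transcript length implied by the deposited count and FPKM values of HMGN3 was 895 bases in shNC 1, 993 bases in shNC 2, 901 bases in shTPX2 1 and 917 bases in shTPX2 2. It was 1342 and 1401 bases for HMGN1 in the shNC libraries and 1329 and 1348 bases in the shTPX2 libraries. In both genes shNC 2 had the longest average. For HMGB2 (1504 to 1510 bases), HMGB3 (3612 to 3631 bases), HMGA1 (1977 to 1982 bases) and HMGN2 (1967 to 1969 bases) the implied length was nearly constant over the libraries.

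The sum of the 8 members was 3395 TPM in shNC 1, 3207 TPM in shNC 2, 4494 TPM in shTPX2 1 and 3060 TPM in shTPX2 2. Knockdown libraries thus held both the highest and the lowest sum. Without HMGA1 the sums were 1030 and 972 TPM in the shNC libraries and 1259 and 998 TPM in the shTPX2 libraries. The lowest was then shNC 2. By family, the HMGB genes summed to 332 and 431 TPM in the shNC libraries and 474 and 397 TPM in the shTPX2 libraries, and the HMGN genes to 653 and 511 TPM compared to 734 and 583 TPM. In 7 of the 8 members shTPX2 1 was above shTPX2 2, and in 6 of the 8 shNC 1 was above shNC 2. The same counts over all genes were not made, so a difference between whole libraries cannot be told apart from one of the HMG genes.

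**Figure D3:**
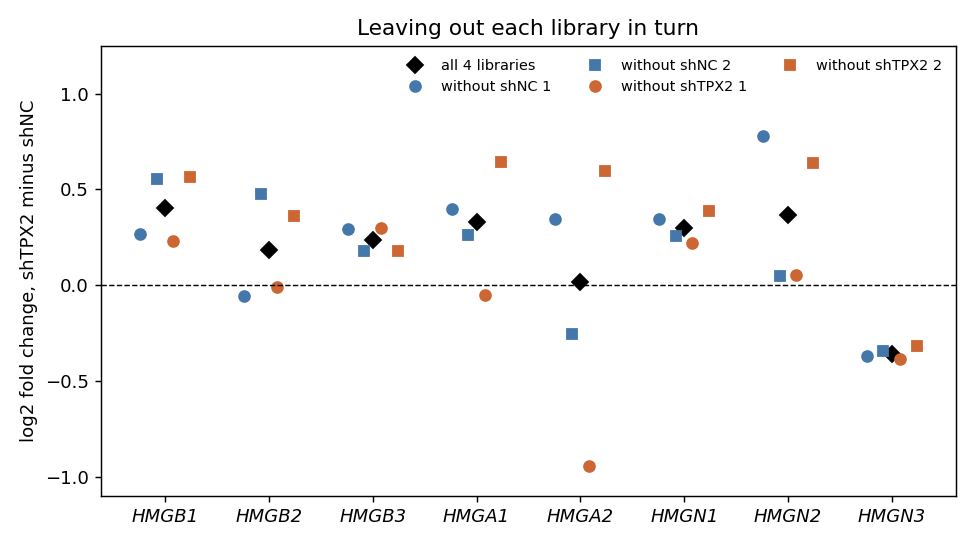
Log2 fold change (shTPX2 minus shNC, edgeR) of each HMG gene with all 4 libraries (black diamonds) and after leaving out each library in turn (circles for replicate 1, squares for replicate 2, blue for shNC and orange for shTPX2). HMGB3, HMGN1 and HMGN3 keep similar values throughout, whereas HMGA2 runs from −0.94 to 0.59 and HMGB2 and HMGA1 cross 0.

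HMGN4 and HMGN5 were described for comparison, and HMGB4 was not analysed here. HMGN4, which arose as a retrocopy of HMGN2 and encodes a protein of its own, measured 49.0 TPM in shNC 1, 49.1 TPM in shNC 2, 42.7 TPM in shTPX2 1 and 32.1 TPM in shTPX2 2. Both shTPX2 libraries were below the shNC libraries, and the log2 fold change was −0.25 (SE 0.20, adjusted p = 0.782 in edgeR). HMGN2 and HMGN4 thus had opposite signs, and their ratio in TPM was 6.75 and 4.22 in the shNC libraries and 8.86 and 8.08 in the shTPX2 libraries. HMGN5, an X-linked member with an acidic tail, was nearly silent, with 12 and 18 counts in the shNC libraries and 6 and 9 in the shTPX2 libraries (log2 fold change −0.91, SE 0.54, adjusted p = 0.725 in edgeR).

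Genes that share the HMG box or the binding partners of these proteins were counted next, by lists that were chosen with results of these data known. Of 14 tested HMG-box proteins that bind DNA with low specificity, 0 passed an unadjusted p under 0.05 in edgeR, beside 8.03% of all tested genes. Their median log2 fold change was 0.07 (−0.0061 to 0.20 when any library was left out). Among 15 tested sequence-specific HMG-box factors of the SOX and TCF/LEF type, 0 passed, beside the same 8.03% of all tested genes, and the median was 0.10 (−0.079 to 0.31). Of 3 tested linker histone genes, 1 was higher at an unadjusted p under 0.05, beside 3.13% of all tested genes. This was HIST1H1C, which encodes histone H1.2 and measured 42.4 and 24 TPM in the shNC libraries and 58.1 and 57.4 TPM in the shTPX2 libraries (log2 fold change 0.92, SE 0.32, adjusted p = 0.587 in edgeR). Its groups did not overlap. The median of the linker histone list was 0.01 (0.0094 to 0.19 when any library was left out), with 2 positive values and 1 negative value. The list holds 8 genes, and those not tested fell below the filter on low counts.

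Of 10 tested receptors and extracellular partners of HMGB1, 1 was lower at an unadjusted p under 0.05, beside 4.9% of all tested genes, and 0 were higher. This gene was CD24, a surface glycoprotein that binds HMGB1 and is also widely used as a marker of tumour cells. CD24 measured 196 and 177 TPM in the shNC libraries and 87.8 and 91.4 TPM in the shTPX2 libraries, without overlap (log2 fold change −0.93, SE 0.17, unadjusted p = 0.00121, adjusted p = 0.439 in edgeR). AGER, which encodes the receptor RAGE and was named after its values had been seen, remained between 3.58 and 6.38 TPM in all libraries, and its log2 fold change was −0.33 (SE 0.39, adjusted p = 0.860 in edgeR). The median over this list was −0.20. It was −0.61 without shNC 1, −0.42 without shTPX2 2, −0.022 without shNC 2 and 0.030 when each library had to hold 10 counts or more.

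Among 12 tested genes for the modification and export of HMGB1 and its role in autophagy, 2 were higher at an unadjusted p under 0.05 and 0 were lower, beside 3.13% and 4.9% of all tested genes. The list had a median of 0.09 on the log2 scale, which was 0.21 without shNC 1 and −0.0046 without shNC 2, and −0.032 with limma on log2(TPM + 1). Both encode redox enzymes that act on the cysteines of HMGB1. PRDX1, a peroxiredoxin, measured 1617 and 1466 TPM in the shNC libraries and 1922 and 2129 TPM in the shTPX2 libraries (log2 fold change 0.52, adjusted p = 0.597 in edgeR). TXN, which encodes thioredoxin, measured 652 and 613 TPM compared to 810 and 774 TPM (log2 fold change 0.45, adjusted p = 0.614 in edgeR). For both genes the shTPX2 libraries were above the shNC libraries. BECN1, which encodes the autophagy protein Beclin 1 and was likewise named after its values had been seen, ranged from 45.6 to 49.9 TPM with overlapping groups (log2 fold change 0.09, SE 0.16, adjusted p = 0.915 in edgeR).

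The SET complex, a nuclease complex of the cytoplasm and nucleus that contains HMGB2, had 5 tested genes besides HMGB2, all with a positive log2 fold change and with a median of 0.32. The median was 0.63 without shNC 1 and 0.061 without shNC 2. Of these genes, 1 was higher at an unadjusted p under 0.05, beside 3.13% of all tested genes. It was NME1, a nucleoside diphosphate kinase, with 181 and 155 TPM in the shNC libraries and 289 and 253 TPM in the shTPX2 libraries (log2 fold change 0.81, SE 0.18, unadjusted p = 0.00380, adjusted p = 0.470 in edgeR). Of 6 tested genes of the LIN28, let-7 and IGF2BP axis, which controls HMGA2 in development, 0 passed an unadjusted p under 0.05 in either direction, beside 8.03% of all tested genes. The median of this list was −0.10 (−0.25 to 0.058 when any library was left out). None of the genes of these lists passed an adjusted p under 0.05.

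Since HMGB1, HMGB2 and HMGN2 are expressed in step with proliferation in many cells, the levels of cell cycle genes are given beside theirs. Of 42 S phase genes, 41 had a positive log2 fold change, 18 were higher at an unadjusted p under 0.05 in edgeR and 0 were lower, beside 3.13% and 4.9% of all tested genes, and the median was 0.61 (0.43 to 0.77 when any library was left out). Among them, the helicase subunit gene MCM5 was at 31.5 and 35.5 TPM in the shNC libraries and 63.7 and 61.8 TPM in the shTPX2 libraries (log2 fold change 1.03, SE 0.16, adjusted p = 0.392 in edgeR), and the groups did not overlap. The next smallest p-values of the list belonged to MCM2 (log2 fold change 0.85, adjusted p = 0.454), UHRF1 (1.08, adjusted p = 0.470) and PCNA (0.77, adjusted p = 0.470 in edgeR). The summed level of this list was 1087 and 1344 TPM in the shNC libraries and 1842 and 1587 TPM in the shTPX2 libraries, so the order of the 4 libraries was the same as for HMGB1 except for shNC 2 and shTPX2 2, which were nearly equal in HMGB1. Of 50 G2/M genes, with HMGB2 and TPX2 left out, 25 had a positive and 25 a negative log2 fold change, and their sum was 2407 TPM in shNC 1, 4179 TPM in shNC 2, 3419 TPM in shTPX2 1 and 3252 TPM in shTPX2 2. Of these, TUBB4B, which encodes a beta-tubulin, was higher at an unadjusted p under 0.05 (log2 fold change 0.53, adjusted p = 0.620 in edgeR), and 0 were lower. The median of the list was −0.0041, but −0.37 without shNC 1 and 0.56 without shNC 2, so the even count rests on both shNC libraries together. The sums follow the order of the libraries in the TPM of HMGB2, with shNC 2 highest and shNC 1 lowest. HMGN2 followed neither the S phase nor the G2/M order. It was lowest in shNC 2 (207 TPM) and measured 331 TPM in shNC 1, where both sums were lowest. The part of the cell cycle genes in the differences of the HMG genes was not tested.

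The genes whose profile over the 4 libraries was most like that of a member were found by the root mean square (RMS) difference of centred log2 CPM, among 11187 other genes with a mean count of at least 100. For HMGB1 these were TIMELESS, a fork protection protein (RMS 0.0306), MTCL1, a microtubule crosslinker (0.0317), and DUT, the deoxyuridine triphosphatase (0.0431). HMGB2 came at rank 235 with an RMS difference of 0.133, HMGN1 at rank 430 and HMGA2 at rank 10608. For HMGB2 the closest were TUBA4A, an alpha-tubulin (0.0225), C4orf46 (0.0302) and TRIP13, an ATPase of the spindle checkpoint (0.0317). The likeness rests on 4 points, of which many genes can share the shape, and is given as a description.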

How the data were processed

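Stable shNC and shTPX2 PC9 cells were compared with 2 poly(A)-selected libraries each. For cleaning the authors used SOAPnuke, for alignment HISAT2/Bowtie2, and for quantification either RSEM or StringTie, whereas the submitters' processing notes name HISAT2, featureCounts, DESeq2 and GRCh38. The annotation and strand setting are not given in the sources used here. The authors deposited expected counts per gene (not normalized, 42.2% to 44.6% of them not whole in a library), FPKM values and TPM values. Deposited group averages were used in no result. How reads of near-identical copies were divided is not stated, which limits HMGB1 and HMGN2 most.

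Expected counts were rounded to 0 decimals, filtered with filterByExpr (14048 of 18134 genes kept) and compared in edgeR 4.0.16 by its quasi-likelihood test (TMM factors, Benjamini-Hochberg adjustment over all tested genes, R 4.3.3). The common dispersion was 0.0485, so spread between libraries rather than depth limited the precision. Calls followed an adjusted or unadjusted p under 0.05 and, after the study's methods, limma 3.58.1 voom with an unadjusted p of up to 0.1 and a log2 change of 0.3 or more (the methods give no base). Alternatives were RLE factors, library size only, no filter, at least 10 counts in every library, DESeq2 1.42.0, limma voom, limma on log2(TPM + 1), the replicate number as a block and leaving out each library. Non-overlap on the TMM scale was added after values had been seen. Shared stretches and pseudogenes were read from GENCODE v29 (GRCh38), with the main transcript taken as the principal one with the longest coding part. The average transcript length was computed from count, FPKM and library total.

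The members and lists were chosen with earlier results of these data known. Named were all 8 members, TPX2, further HMGA, HMGB and HMGN rows, from each list at most the 4 genes with the smallest unadjusted p under 0.05 whose groups did not overlap in TPM, and the 3 genes most like HMGB1 and HMGB2. Markers of cell types are named from their lists, and other genes outside the rule are marked.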

Additional observations from a re-analysis of the deposited data

How the results depend on the processing

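With 2 libraries per group, no member passed an adjusted p under 0.05 in any of the 12 alternatives, and the 95% interval of each member includes no change. The spread between libraries, rather than the depth, sets the width of these intervals. HMGB1, HMGB3, HMGN1, HMGN2 and HMGN3 kept their direction in all 12 alternatives, HMGA1 in 11, HMGB2 in 10 and HMGA2 in 6. HMGB2 reversed to −0.057 without shNC 1 and to −0.0072 without shTPX2 1 (range to 0.48), and HMGA1 to −0.051 without shTPX2 1 (range to 0.64). HMGA2 reversed to −0.060 with library size only, −0.15 with limma voom, −0.26 with limma on log2(TPM + 1), −0.15 with the replicate block, −0.26 without shNC 2 and −0.94 without shTPX2 1, within a range up to 0.59 without shTPX2 2. With library size only the median of all tested genes moved too, from −0.0085 to −0.078. The causes of these reversals were not tested.

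Without a block, no member was called by edgeR at an unadjusted p under 0.05 with all libraries, but HMGN3 was (1 member, beside 8.11% of all tested genes) with limma on log2(TPM + 1), and leaving out a library gave 0 to 1 members, namely HMGN2 without shNC 1 (beside 14.5%) and HMGA2 without shTPX2 1 (beside 6.34%). By the voom criteria 1 member was called, and 2 with no filter on low counts (HMGB1 and HMGN1, beside 14.2%) or with at least 10 counts in every library (HMGB1 and HMGN3, beside 13.8%). With library size only or log2(TPM + 1), HMGN3 was called in place of HMGB1, beside 14.4% and 15.1% of all tested genes. Leaving out a library gave 1 to 4 members: HMGN2 without shNC 1 (beside 24.3% of all tested genes), HMGB1 and HMGB2 without shNC 2 (13.1%), HMGA2 without shTPX2 1 (10.9%), and HMGA1, HMGA2, HMGB1 and HMGN2 without shTPX2 2 (7.03%).

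Over all genes, edgeR called 0 higher and 0 lower genes at an adjusted p under 0.05 (440 and 688 at an unadjusted p), DESeq2 33 and 78, and limma on log2(TPM + 1) 1 lower. Leaving out a library gave 0 to 5 higher and 0 to 20 lower. The 440 unadjusted calls that were higher became 288 with library size only, 217 with log2(TPM + 1) and 211 to 930 without a library, and the 688 that were lower became 310 to 1159. The 876 higher calls by voom became 578 with library size only, 440 with log2(TPM + 1) and 495 to 1546 without a library, and the 1122 lower calls became 1684 with log2(TPM + 1) and 523 to 1969.

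The replicate numbers are shared by the groups, but nothing says that they mark a shared culture or day, and deviations from the group means correlated across genes at r = 0.194. With the number as a replicate block, 1 member (HMGN2, log2 fold change 0.38, unadjusted p = 0.0397, adjusted p = 0.508) passed an unadjusted p under 0.05 in edgeR, beside 9.63% of all tested genes, and 2 (HMGB1 and HMGN2) met the voom criteria, beside 17.4%.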

Other observations

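The deposited table also holds group averages in columns of their own, which were left out of every comparison. They are not the means of the 2 libraries beside them: the authors' average TPM was within 0.01 of that mean for 7.85% of the genes in the shNC group and 6.85% in the shTPX2 group. For HMGB1 the libraries gave means of 206 and 251.7 TPM in the shNC and shTPX2 groups, and the authors' averages were 284 and 348.9 TPM. For HMGA1 the means were 2300 and 2648 TPM and the authors' averages 2207 and 1955 TPM, so the order of the groups differed between them. How the averages were made is not given in the sources used here.

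Pairs of libraries differed by 39.6 to 71.3 chi-square units per gene, and the 2 shNC libraries were the pair farthest apart by this measure (71.3, Pearson's r = 0.976 of log2 CPM across genes, which are not independent replicates). The shTPX2 libraries were closer to each other (43.7, r = 0.984), and the closest pair was shNC 1 with shTPX2 1 (39.6, r = 0.986).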
